A study of Mus musculus with 8 samples.

Results

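The integrin chains and the chains of the vascular basement membrane were examined in lung endothelial cells (EC) of tumor-bearing mice given an antibody against TIE1. The 43 genes were listed by family: 14 integrin alpha chains, 8 integrin beta chains, 10 laminin chains, 6 type IV collagen chains, and the 5 genes of the nidogens, perlecan and collagens XV and XVIII. Probe sets named for 41 of them were found among the 19505 named genes measured. Itga1 and Itga10 were not matched to a probe set here and have no value. Each of the 41 genes had 1 probe set.

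RNA was measured on 8 Clariom S mouse arrays, a 1-color microarray with 1 value per transcript cluster. The 4 anti-TIE1-treated mice and the 4 IgG-treated mice were C57BL/6N animals of 8 weeks, all bearing subcutaneous Lewis lung carcinoma (LLC) tumors, and each received 40 mg/kg of antibody or control IgG intraperitoneally 2 times per week. On day 14 their lung EC were sorted as CD31+ CD45- LYVE1- PDPN- Ter119- DAPI- cells, so that the cells were not tumor vessels and no tumor-free mice were compared. The labels call the 4 samples of each group biological replicates. The antibody binds the TIE1 protein and deletes no gene, so no transcript level checks the labels. The protocol text names liver in 1 place, whereas the source label, the growth protocol and the study's methods give lung.

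Integrins are transmembrane receptors of 1 alpha and 1 beta chain that hold cells to their matrix. EC rest on a basement membrane in which laminins and type IV collagen form separate networks, linked by nidogens and by perlecan, a heparan sulfate proteoglycan. In vessels, integrins that contain the Itgb1 chain bind laminin, collagen and fibronectin, integrins that contain the Itgav chain bind ligands such as vitronectin and fibronectin, and laminins with the Lama4 or Lama5 chain are the main vascular types.

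Levels are given as log2 of the deposited intensity, and differences as the anti-TIE1 mean minus the IgG mean on that scale, tested with limma. The median of all 22204 tested probe sets was 7.54, and array medians lay between 183.8 and 189.6 on the linear scale. Probe sets that match no mouse sequence averaged 5.63 to 7.87 according to their GC content, and 19 of the 41 genes had a mean below the brightest of them, Itgb3, Itgal, Lama4, Hspg2 and Col18a1 among them, so that for these 19 part or all of the signal may be background. The mean of 10 endothelial markers, Pecam1 and Cdh5 among them, lay between 11.48 and 11.53 in the anti-TIE1 arrays and between 11.43 and 11.53 in the IgG arrays. Among the marker lists of other cells, those of lymphatic endothelium, platelets and alveolar type 2 cells held 4 or more genes at an unadjusted p under 0.05, and their values stand beside the genes they touch. In such bulk samples, fewer cells of a type and less RNA per cell cannot be told apart.

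No integrin or basement membrane gene passed an adjusted p under 0.05 (smallest adjusted p 0.896, limma with Benjamini-Hochberg adjustment), and over all probe sets 0 of 22204 passed (0%). Of the 41 genes, 15 had a higher and 26 (63.4%) a lower mean in anti-TIE1 EC, against 51.4% lower over all named genes. At an unadjusted p under 0.05, 4 genes were lower (9.76%, against 3.15% of all probe sets) and 0 were higher (against 2.17%). These 4 were Itgb3, Itgb4, Itgal and Nid1, namely 3 integrin chains and 1 linker of the laminin and collagen networks. The genes and the further lists were chosen with earlier results of these data known. Their shares beside those of all probe sets are therefore descriptions and no independent support. In none of the 41 genes were the anti-TIE1 and IgG values free of overlap, whereas over all probe sets 1.38% were higher and 1.78% lower without overlap. The median difference was -0.05 for the 41 genes and -0.0038 for all named genes.

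**Figure D1:**
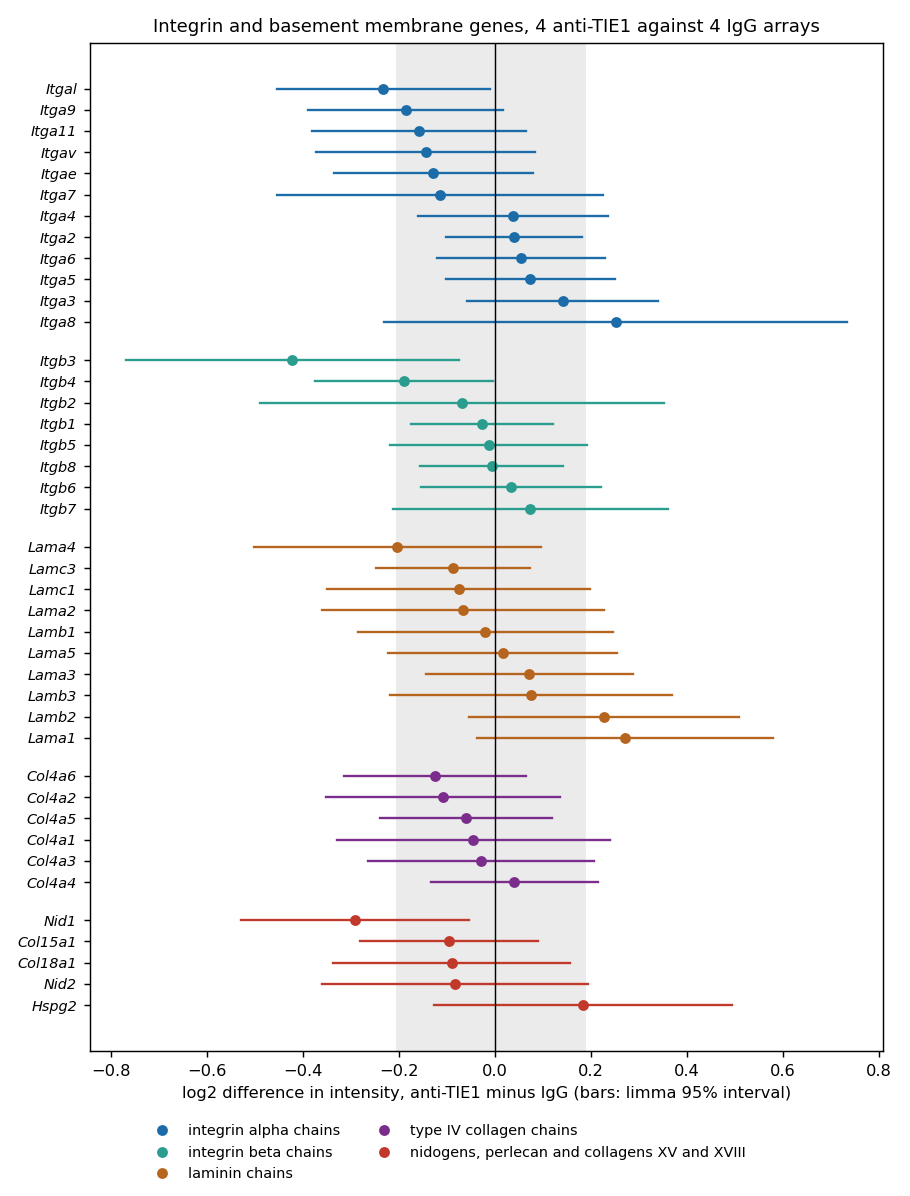
Log2 difference in intensity, anti-TIE1 minus IgG, of the 41 measured genes (points) with the 95% interval of limma (bars), ordered by size within each family. The gray band spans the 5th to the 95th percentile of all named genes, -0.21 to 0.19. Of the 41 points 35 lie inside it, and the intervals of Itgb3, Itgb4, Itgal and Nid1 lie below 0.

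The 20 integrin chains and the 21 matrix chains were then set side by side. Of the integrin chains, 8 had a higher and 12 a lower mean, and 3 were lower at an unadjusted p under 0.05 (15%). Of the matrix chains, 7 had a higher and 14 a lower mean, and 1 was lower at that level (4.76%). Over all probe sets the share lower at that level was 3.15%. The differences ran between -0.42 and 0.25 for the integrins (median -0.02) and between -0.29 and 0.27 for the matrix (median -0.06). Between arrays of a group, the median of a list varied with an SD of 0.03 for the integrin and 0.05 for the matrix chains. This is a spread of single arrays and not the error of a difference between group means. It therefore does not set the medians of the lists apart. Leaving out 1 array gave matrix medians between -0.10 (without IgG replicate 2) and -0.02 (without anti-TIE1 replicate 4), and without anti-TIE1 replicate 3 the integrin median (-0.0553) was below the matrix median (-0.0464). A single integrin chain had a median SD of 0.13 within a group, and a single matrix chain 0.16. The intervals show what the arrays could resolve: for 35 of the 41 genes the 95% interval lay within 0.5 of 0 on the log2 scale, which leaves room for changes of up to 1.41-fold.

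Among the beta chains, Itgb3 showed the largest difference. Its product pairs with the Itgav chain on vascular cells and with the Itga2b chain on platelets. Itgb3 was at 7.63, 7.82, 7.54 and 7.64 in the anti-TIE1 arrays, against 8.11, 8.35, 8.30 and 7.57 in the IgG arrays. The anti-TIE1 values lay close together, whereas IgG replicate 4 stood at their level and apart from the other IgG arrays, so that the groups overlapped through this 1 array. The means were 7.66 ± 0.12 in anti-TIE1 and 8.08 ± 0.36 in IgG EC (SD, n = 4 each), a difference of -0.42 (SE 0.16, 95% interval -0.77 to -0.08, fold 0.746, adjusted p = 0.896; unadjusted limma p = 0.0218 and two-sided exact permutation p = 0.114). The permutation test runs over the 70 arrangements of the arrays and can give no p below 0.0286. Without IgG replicate 4 the difference was -0.59 (adjusted p = 0.119). Without anti-TIE1 replicate 3, IgG replicate 2 or IgG replicate 3 the unadjusted value exceeded 0.05 (0.0556, 0.067 and 0.0638).

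The mean of the 11 measured platelet and megakaryocyte markers was high in the same IgG arrays. It was 8.22, 8.36, 8.30 and 8.19 in the anti-TIE1 arrays, against 8.67, 8.82, 8.85 and 8.27 in the IgG arrays. IgG replicate 4 was again at the anti-TIE1 level and was the lowest IgG array for 9 of the 11 markers. Of the 11, 7 were lower at an unadjusted p under 0.05 (63.6%, against 3.15% of all probe sets), with a median difference of -0.41. Itga2b, the platelet partner of Itgb3, was at 8.82, 9.09, 8.98 and 8.82 in anti-TIE1 EC, against 8.57, 9.48, 8.65 and 8.65 in IgG EC. It did not share this order: only IgG replicate 2 was above the anti-TIE1 range, and the difference was 0.09 (95% interval -0.31 to 0.50). Thbs1, which encodes the platelet and matrix protein thrombospondin, was singled out after its values were seen, at 8.98, 9.11, 8.96 and 8.78 in anti-TIE1 EC, against 9.84, 9.83, 10.08 and 8.52 in IgG EC. Its lowest IgG array was replicate 4 (difference -0.61, adjusted p = 0.947). Because Thbs1 was picked with its values known, it does not count as a further case of this order. The part of the platelet markers in the Itgb3 difference was not tested.

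**Figure D2:**
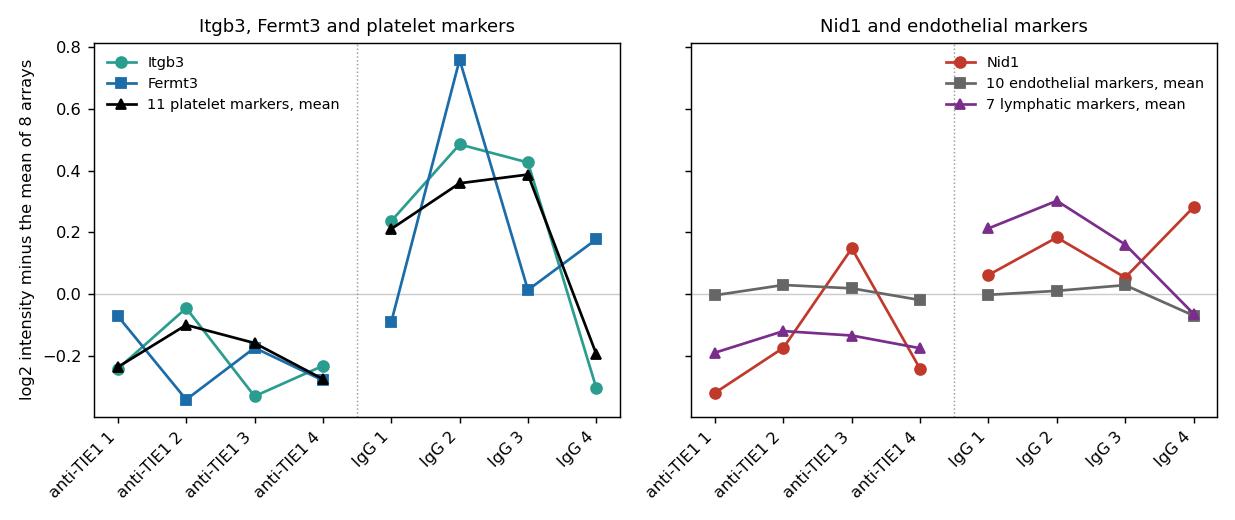
Log2 intensity minus the mean over the 8 arrays, by array, with the 4 anti-TIE1 arrays left of the dotted line and the 4 IgG arrays right of it. On the left, Itgb3 and the mean of 11 platelet markers are both high in IgG replicates 1 to 3 and low in IgG replicate 4, whereas Fermt3 peaks in IgG replicate 2. On the right, Nid1 is highest in IgG replicate 4, where the mean of 7 lymphatic markers is lowest within the IgG group.

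Itgb4 encodes the partner of the Itga6 chain in a laminin receptor best known from hemidesmosomes of epithelia. It was at 8.79, 8.89, 8.59 and 8.69 in the anti-TIE1 arrays, against 8.99, 8.98, 8.95 and 8.80 in the IgG arrays. Only anti-TIE1 replicate 2 and IgG replicate 4 crossed. The means were 8.74 ± 0.13 in anti-TIE1 and 8.93 ± 0.09 in IgG EC (SD, n = 4 each), a difference of -0.19 (SE 0.08, 95% interval -0.37 to -0.0044, fold 0.877, limma p = 0.0457, adjusted p = 0.932, exact permutation p = 0.0571). With the replicate number as a block the unadjusted value was 0.0529, and with arrays scaled to the same median 0.0544. It stayed under 0.05 only without anti-TIE1 replicate 2 (0.0189) or without IgG replicate 4 (0.0229) among the 8 fits that left out 1 array. The alveolar type 2 markers ran the other way, with list means between 8.84 and 9.31 in anti-TIE1 and between 8.51 and 8.97 in IgG arrays. Of these markers, 4 of 9 were higher at an unadjusted p under 0.05 (44.4%, against 2.17% of all probe sets). Their part in the values of the epithelial chains was not tested.

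The other beta chains showed small differences between the group means. Itgb1, the common beta chain of the laminin, collagen and fibronectin receptors, was at 11.11, 11.14, 11.11 and 11.07 in anti-TIE1 EC, against 11.18, 11.15, 11.19 and 11.02 in IgG EC. All 8 arrays lay within a narrow range, and the difference of -0.03 had an interval of -0.18 to 0.12 (adjusted p = 0.990). Itgb5, another partner of the Itgav chain, was at 8.17, 8.05, 8.35 and 8.37 in anti-TIE1 EC, against 8.26, 8.10, 8.29 and 8.34 in IgG EC. The groups overlapped throughout (difference -0.01, 95% interval -0.22 to 0.19). Itgb2, the beta chain of leukocyte integrins, Itgb6 and Itgb8, which activate TGF-beta with the Itgav chain, and Itgb7 of lymphocytes differed by between -0.07 and 0.07. The 95% intervals were wide for Itgb2 (-0.49 to 0.35) and Itgb7 (-0.21 to 0.36). The means of Itgb2 and Itgb8 were below the brightest background probe sets.

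**Figure D3:**
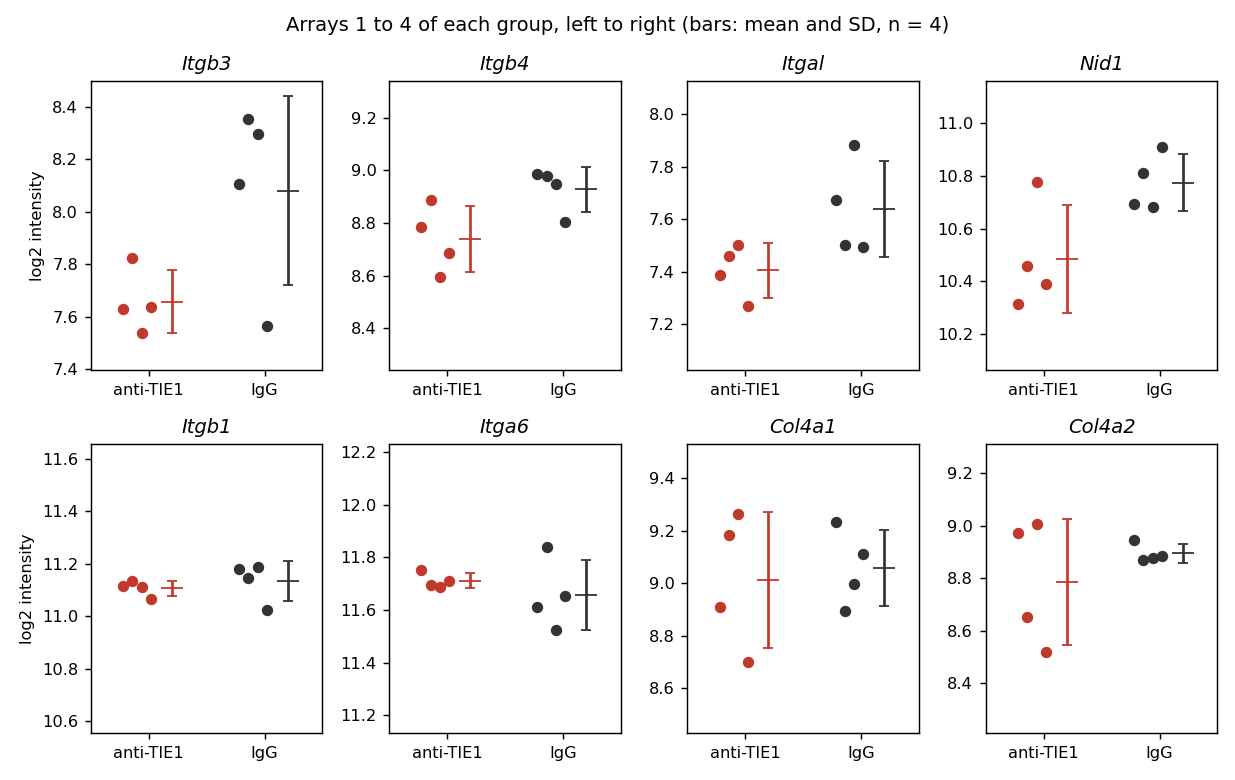
Log2 intensity of 8 genes in the anti-TIE1 arrays (left in each panel) and the IgG arrays (right), with points for replicates 1 to 4 and bars for the mean and SD (n = 4), on axes of equal span. The upper row holds the 4 genes lower at an unadjusted p under 0.05, and the lower row Itgb1, Itga6, Col4a1 and Col4a2. In every panel at least 1 anti-TIE1 array reaches the IgG range.

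Of the 12 alpha chains, 6 had a higher and 6 a lower mean. Itgal, the alpha chain of the leukocyte integrin LFA-1, was the 1 at an unadjusted p under 0.05. It was at 7.39, 7.46, 7.50 and 7.27 in the anti-TIE1 arrays, against 7.67, 7.50, 7.88 and 7.49 in the IgG arrays. IgG replicates 2 and 4 met the upper anti-TIE1 values, and the difference was -0.23 (SE 0.10, 95% interval -0.45 to -0.01, fold 0.851, limma p = 0.0416, adjusted p = 0.930, exact permutation p = 0.0571). Without anti-TIE1 replicate 1, 2 or 4 or IgG replicate 1 or 3, the unadjusted value lay between 0.052 and 0.12, and after quantile normalization it was 0.0502. Both group means, 7.40 ± 0.10 in anti-TIE1 and 7.64 ± 0.18 in IgG EC (SD, n = 4 each), were below the brightest background probe sets, and the sort excluded CD45+ cells. The mean of 13 leukocyte markers lay between 6.99 and 7.05 in anti-TIE1 and between 6.98 and 7.09 in IgG arrays. Ptprc, which encodes CD45, was at 7.17, 7.88, 7.83 and 7.81 in anti-TIE1 EC, against 7.81, 7.34, 7.83 and 7.92 in IgG EC, an order unlike that of Itgal. At an unadjusted p under 0.05, 1 of the 13 markers was lower, the T cell gene Cd3e (7.69%, against 3.15% of all probe sets). The neutrophil gene S100a9 was the 1 that was higher (7.69%, against 2.17%). Cd3e was at 6.73, 6.56, 6.85 and 6.88 in anti-TIE1 EC, against 6.85, 7.07, 6.96 and 7.29 in IgG EC (difference -0.29, adjusted p = 0.911). Cd3e thus had a lower mean along with Itgal. Within the IgG arrays, however, it was highest in replicate 4 (7.29), where Itgal was lowest (7.49). The leukocyte list means, every Cd3e value and most Ptprc values were below the brightest background probe sets (7.87), so part or all of these signals may be background. The part of Cd3e in the Itgal value was not tested.

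The alpha chains of the endothelial receptors showed small differences. Itga6, of the laminin receptors, was at 11.75, 11.70, 11.69 and 11.71 in anti-TIE1 EC, against 11.61, 11.84, 11.53 and 11.65 in IgG EC. The anti-TIE1 values lay inside the wider IgG range, with a difference of 0.05 (95% interval -0.12 to 0.23). Itga5, of the fibronectin receptor, was at 9.86, 10.02, 10.08 and 10.01 in anti-TIE1 EC, against 10.002, 9.99, 9.91 and 9.77 in IgG EC. The ranges overlapped over most of their length (difference 0.07, 95% interval -0.10 to 0.25). Itgav, whose product binds vitronectin and activates TGF-beta with several beta chains, was at 9.94, 9.81, 9.57 and 9.67 in anti-TIE1 EC, against 9.80, 9.74, 9.97 and 10.06 in IgG EC. Its 2 lowest arrays were both anti-TIE1 and its 2 highest both IgG, with a difference of -0.14 (95% interval -0.37 to 0.08, adjusted p = 0.965).

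The remaining alpha chains lay between -0.19 and 0.25. Itga9, best known from lymphatic valves, differed by -0.19 (95% interval -0.39 to 0.02, exact permutation p = 0.114, adjusted p = 0.950). Its unadjusted limma p was under 0.05 without anti-TIE1 replicate 2 (0.0377) or IgG replicate 4 (0.0183). With all arrays kept, it was 0.0484 after quantile normalization, 0.0499 with limma-trend and 0.0348 with array weights. In the main fit, with median scaling, with bright probe sets only and with the replicate number or hybridization control set as a block, it lay between 0.0628 and 0.0899. The 7 lymphatic markers had list means between 9.02 and 9.09 in anti-TIE1 and between 9.14 and 9.51 in IgG arrays. Of them, 4 were lower at an unadjusted p under 0.05 (57.1%, against 3.15% of all probe sets), although LYVE1+ and PDPN+ cells were gated out. The part of these markers in the Itga9 value was not tested. Itga8, a mesenchymal receptor for nephronectin, had the widest range of the 41 genes, 1.01, and the largest positive difference of the integrins, 0.25, with an interval of -0.23 to 0.73. Its mean over all arrays (7.76) was below the brightest background probe sets. IgG replicate 4 was at 8.26, above the other IgG arrays (7.26 to 7.61), and without it the difference was 0.46 (adjusted p = 0.794) with an unadjusted value of 0.0227, whereas without anti-TIE1 replicate 1 it was 0.12 and without IgG replicate 1 it was 0.13. The collagen receptor chain Itga2 and the laminin receptor chain Itga3 differed by 0.04 and 0.14, Itga4 of the Vcam1 receptor by 0.04, Itga11 of fibroblasts by -0.16, Itgae of intraepithelial lymphocytes by -0.13 and the muscle laminin receptor chain Itga7 by -0.11.

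Among the matrix genes, Nid1 was the 1 at an unadjusted p under 0.05. Nidogen binds laminin and type IV collagen and so joins both networks. Nid1 was at 10.31, 10.46, 10.78 and 10.39 in the anti-TIE1 arrays, against 10.69, 10.81, 10.68 and 10.91 in the IgG arrays. Of the anti-TIE1 arrays, 3 were below every IgG array, and anti-TIE1 replicate 3 lay within the IgG range. The means were 10.48 ± 0.20 in anti-TIE1 and 10.78 ± 0.11 in IgG EC (SD, n = 4 each), a difference of -0.29 (SE 0.11, 95% interval -0.53 to -0.05, fold 0.817, limma p = 0.0208, adjusted p = 0.896, exact permutation p = 0.0857). Without anti-TIE1 replicate 1, anti-TIE1 replicate 4 or IgG replicate 4 the p exceeded 0.05 (0.0623, 0.0555 and 0.0579). Nid2, the other nidogen, differed by -0.08 (95% interval -0.36 to 0.19).

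The type IV collagen genes showed small differences between the group means: 1 of 6 had a higher and 5 a lower mean (median -0.05), and 0 were at an unadjusted p under 0.05. The Col4a1 and Col4a2 chains form the trimer found in nearly all vessels, and their genes lie head to head, so that both promoter windows overlap. The windows are shown because the genes share them and because Nid1 was the matrix gene that stood lowest. They run from 250 bases before to 50 bases after each start (RefSeq, GRCm38.p6) and are available for 27 of the 41 genes. Capitals mark the 78 shared bases of Col4a1 and Col4a2, chr8:11312777-11312854, and, in Nid1, the motifs CCAAT and GGGCGG found on either strand.
Col4a1, chr8:11312777-11313076, minus strand: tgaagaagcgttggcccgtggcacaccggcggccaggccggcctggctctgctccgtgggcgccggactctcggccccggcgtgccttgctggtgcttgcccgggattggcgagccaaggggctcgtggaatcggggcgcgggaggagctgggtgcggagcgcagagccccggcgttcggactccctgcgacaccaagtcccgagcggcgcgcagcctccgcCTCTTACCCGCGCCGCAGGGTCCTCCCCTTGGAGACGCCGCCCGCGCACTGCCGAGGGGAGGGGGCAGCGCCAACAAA
Col4a2, chr8:11312555-11312854, plus strand: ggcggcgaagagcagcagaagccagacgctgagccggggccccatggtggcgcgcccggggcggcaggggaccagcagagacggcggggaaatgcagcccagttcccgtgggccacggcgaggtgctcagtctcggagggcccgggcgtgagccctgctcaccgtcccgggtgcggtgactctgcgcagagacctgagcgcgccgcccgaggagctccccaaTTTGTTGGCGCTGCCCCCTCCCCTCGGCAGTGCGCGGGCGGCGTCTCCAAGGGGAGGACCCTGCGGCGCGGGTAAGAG
Nid1, chr13:13437352-13437651, plus strand: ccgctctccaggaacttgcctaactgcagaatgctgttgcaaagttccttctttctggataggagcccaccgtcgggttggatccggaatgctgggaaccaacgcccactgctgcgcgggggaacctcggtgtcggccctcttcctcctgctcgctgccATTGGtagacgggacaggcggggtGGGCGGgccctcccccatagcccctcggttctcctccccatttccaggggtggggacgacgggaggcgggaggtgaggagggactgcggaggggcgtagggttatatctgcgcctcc
Searched on both strands, the shared part held 1 GGGCGG and 0 CCAAT, and the whole windows held 1 CCAAT each, with 1 GGGCGG in Col4a1 and 3 in Col4a2. Nid1 held 1 of each. Of 32851 promoters of this length, 37.4% held CCAAT and 35.7% GGGCGG, so these letters are common.

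The pair that shares these bases had the following levels. Col4a1 was at 8.91, 9.18, 9.26 and 8.70 in anti-TIE1 EC, against 9.23, 8.90, 8.996 and 9.11 in IgG EC. Col4a2 was at 8.97, 8.65, 9.004 and 8.52 in anti-TIE1 EC, against 8.95, 8.87, 8.88 and 8.88 in IgG EC. In both genes anti-TIE1 replicate 3 was the highest and replicate 4 the lowest array of all 8, whereas anti-TIE1 replicate 2 was above the IgG mean for Col4a1 and below it for Col4a2. The anti-TIE1 values thus spread around the IgG values, with SDs of 0.26 in anti-TIE1 and 0.15 in IgG EC for Col4a1 and of 0.24 in anti-TIE1 and 0.04 in IgG EC for Col4a2. The differences were -0.05 (95% interval -0.33 to 0.24) for Col4a1 and -0.11 (95% interval -0.35 to 0.14) for Col4a2. The chains of the alveolar and glomerular basement membrane, Col4a3, Col4a4 and Col4a5, differed by -0.03, 0.04 and -0.06, and Col4a6, of smooth muscle and epithelial membranes, by -0.13.

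The laminin chains split evenly, 5 with a higher and 5 with a lower mean (median -0.0027). Of the vascular alpha chains, Lama4 was at 7.31, 7.95, 7.86 and 7.82 in anti-TIE1 EC, against 7.82, 7.89, 8.10 and 7.95 in IgG EC. Its difference of -0.20 (95% interval -0.50 to 0.10) came with a low value in anti-TIE1 replicate 1 alone and was -0.06 without that array. Lama5 was at 9.10, 9.42, 9.34 and 9.32 in anti-TIE1 EC, against 9.31, 9.33, 9.46 and 9.01 in IgG EC. The groups had the same mean to within 0.02 (95% interval -0.22 to 0.25). Lamb2, the beta chain of mature vessels, was at 9.16, 9.57, 9.45 and 9.14 in anti-TIE1 EC, against 9.23, 8.81, 9.21 and 9.16 in IgG EC. Anti-TIE1 replicates 2 and 3 were the highest and IgG replicate 2 the lowest array (difference 0.23, 95% interval -0.05 to 0.51, adjusted p = 0.955), and without IgG replicate 2 the difference was 0.13. Lamc1, the gamma chain of most laminins, was at 8.66, 9.23, 8.87 and 8.83 in anti-TIE1 EC, against 9.01, 8.80, 9.15 and 8.92 in IgG EC, and here anti-TIE1 replicates 1 and 2 were the lowest and highest of all (difference -0.08, 95% interval -0.35 to 0.20). Lamb1, also a vascular beta chain, was dim, at 5.90, 6.30, 6.08 and 6.21 in anti-TIE1 EC, against 6.11, 6.13, 5.91 and 6.42 in IgG EC. These levels are in the lower part of the background span, and the difference was -0.02 (95% interval -0.29 to 0.24).

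The other laminin chains included the largest positive difference of the 41 genes, 0.27 for Lama1, an embryonic alpha chain (95% interval -0.04 to 0.58, exact permutation p = 0.229, adjusted p = 0.951). The unadjusted value was under 0.05 without IgG replicate 2 (0.0348) or IgG replicate 3 (0.0308), and without IgG replicate 4 the difference was 0.16. Its mean, too, was below the brightest background probe sets. Lama3 and Lamb3, of epithelial laminin, differed by 0.07 and 0.08, Lama2 of muscle by -0.07 and Lamc3 by -0.09. Alveolar type 1 markers had list means between 9.24 and 9.64 in anti-TIE1 and between 9.07 and 9.48 in IgG arrays. At an unadjusted p under 0.05, 1 of 6 was higher (16.7%, against 2.17% of all probe sets). The list of general and airway epithelium had means between 7.33 and 7.46 in anti-TIE1 and between 7.16 and 7.40 in IgG arrays (2 of 10 higher, 20%). The part of the epithelial markers in these chains was not tested.

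The proteoglycan genes did not stand apart. Hspg2, which encodes perlecan, was at 8.04, 7.85, 7.84 and 7.61 in anti-TIE1 EC, against 7.82, 7.80, 7.75 and 7.23 in IgG EC. Replicate 4 was the lowest array of each group, IgG replicate 4 by far, and the difference was 0.18 (95% interval -0.13 to 0.49), or 0.04 without that array. Col18a1, whose cleavage releases endostatin, was at 7.27, 7.20, 7.13 and 7.44 in anti-TIE1 EC, against 7.21, 7.17, 7.62 and 7.41 in IgG EC. Its range in anti-TIE1 EC began below and ended inside that in IgG EC (difference -0.09, 95% interval -0.34 to 0.16). Col15a1, a related collagen at the outer face of basement membranes, was at 8.11, 8.01, 8.14 and 7.94 in anti-TIE1 EC, against 8.16, 8.05, 8.05 and 8.32 in IgG EC. Of the anti-TIE1 arrays, 2 were below every IgG array, and the difference was -0.10 (95% interval -0.28 to 0.09).

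The arrays fell into 2 sets by their hybridization controls, RNAs added at a fixed amount, with 2 anti-TIE1 and 2 IgG arrays in each. Anti-TIE1 replicates 3 and 4 and IgG replicates 1 and 2 had low controls (10.40 to 10.51), and the other 4 arrays high ones (10.79 to 11.05). Within both sets, 16 of the 41 genes had a lower and 10 a higher mean in anti-TIE1 EC, and 15 had opposite signs. The 4 genes at an unadjusted p under 0.05 had lower means in both sets. They were picked by their difference over these same arrays, so this agreement in sign is no independent check. The difference was -0.64 in the low and -0.20 in the high set for Itgb3, -0.34 and -0.04 for Itgb4, -0.20 and -0.26 for Itgal, and -0.17 and -0.41 for Nid1. Hspg2 turned from -0.08 in the low to 0.45 in the high set, Itga7 from -0.43 to 0.20, Lamb3 from 0.37 to -0.22 and Itgb5 from 0.18 to -0.21.

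**Figure D4:**
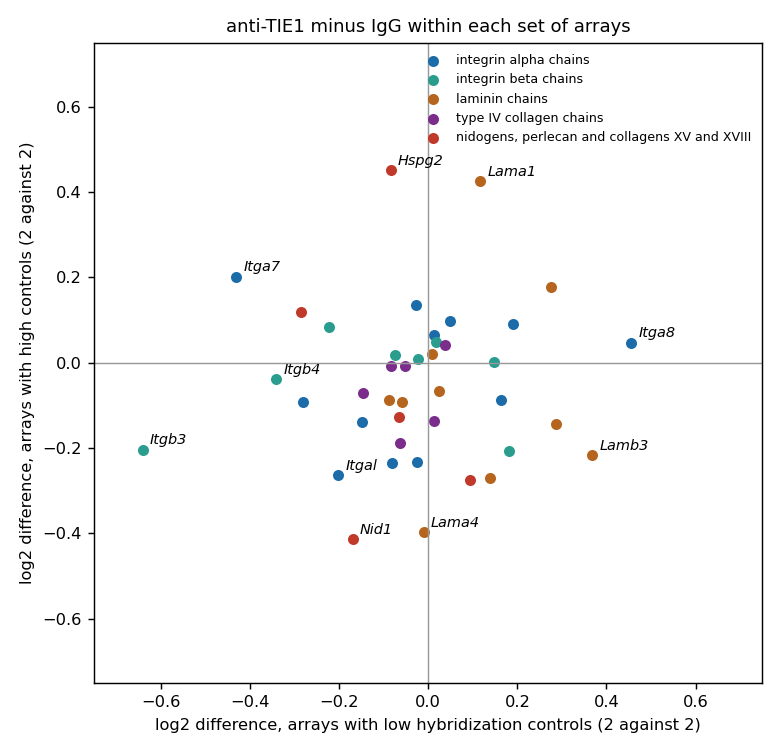
Log2 difference, anti-TIE1 minus IgG, of the 41 genes within the arrays with low hybridization controls (horizontal axis) and within those with high controls (vertical axis), 2 against 2 arrays each. Genes in the lower left quadrant, with Itgb3, Itgb4, Itgal and Nid1 among them, were lower in anti-TIE1 EC in both sets, and 15 genes lie in the quadrants of opposite sign.

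Genes that act with the integrins inside the cell were read from a further list. Of 31 measured genes of integrin activation and focal adhesions, 13 had a higher and 18 a lower mean in anti-TIE1 EC (median -0.02). At an unadjusted p under 0.05, 1 was higher (3.23%, against 2.17% of all probe sets) and 4 were lower (12.9%, against 3.15%), and 0 passed the adjusted p. Without overlap, 1 was higher and 3 were lower, where 1.38% of all probe sets were higher and 1.78% lower. Tns2, a tensin that ties integrins to actin, was at 10.96, 11.29, 10.92 and 11.15 in anti-TIE1 EC, against 10.79, 10.88, 10.85 and 10.67 in IgG EC. It was higher in every anti-TIE1 array (difference 0.28, 95% interval 0.07 to 0.49, adjusted p = 0.873). Zyx, the focal adhesion protein zyxin, was at 9.08, 9.21, 8.96 and 9.07 in anti-TIE1 EC, against 9.28, 9.25, 9.25 and 9.27 in IgG EC. The IgG values were nearly equal and all above the anti-TIE1 values (difference -0.18, 95% interval -0.34 to -0.02, adjusted p = 0.930).

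Krit1, a regulator of junctions and of integrin activation, was also lower without overlap, at 7.58, 7.39, 7.69 and 7.72 in anti-TIE1 EC, against 7.78, 7.76, 7.79 and 7.97 in IgG EC (difference -0.22, adjusted p = 0.930). The kinase gene Ptk2b did not overlap either but had a difference of only -0.08 (limma p = 0.219, adjusted p = 0.965, exact permutation p = 0.0286). Parvb, a parvin that binds integrin-linked kinase, differed by -0.26 (95% interval -0.47 to -0.06, adjusted p = 0.896). Fermt3, the kindlin of blood cells and platelets, was at 7.72, 7.45, 7.61 and 7.51 in anti-TIE1 EC, against 7.70, 8.55, 7.80 and 7.97 in IgG EC. IgG replicate 2 was far above the rest (difference -0.43, 95% interval -0.79 to -0.07, adjusted p = 0.911). The mean of the platelet markers given above was 8.67, 8.82 and 8.85 in IgG replicates 1, 2 and 3. Fermt3 was at only 7.70 and 7.80 in IgG replicates 1 and 3, so the orders differed. Most Fermt3 and Krit1 values were below the brightest background probe sets (7.87), so part or all of these signals may be background. The part of the platelet markers in the Fermt3 value was not tested.

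Outside the cell, 24 integrin ligands, 22 other basement membrane components and receptors and 17 enzymes of collagen assembly were measured. Of the ligands, 1 was lower at an unadjusted p under 0.05 (4.17%, against 3.15% of all probe sets). This was Ccn1, a matricellular protein, at 11.29, 11.39, 11.17 and 11.07 in anti-TIE1 EC, against 11.46, 11.46, 11.43 and 11.37 in IgG EC. Only anti-TIE1 replicate 2 reached the IgG range (difference -0.20, 95% interval -0.38 to -0.02, adjusted p = 0.930). Of the other basement membrane genes, Smoc1, a calcium-binding matrix protein, had a difference of 0.25 (95% interval 0.0011 to 0.49, adjusted p = 0.932) at a level in the background span. Of the 17 enzymes, 11 had a higher and 6 a lower mean, and 3 were lower at an unadjusted p under 0.05 (17.6%, against 3.15% of all probe sets). The difference was -0.20 for Pxdn, the peroxidase that forms the sulfilimine cross-links of type IV collagen, -0.25 for Colgalt1, a collagen galactosyltransferase, and -0.22 for Loxl3, a lysyl oxidase. Pxdn was at 10.55, 10.65, 10.46 and 10.62 in anti-TIE1 EC, against 10.85, 10.58, 10.89 and 10.76 in IgG EC, so that IgG replicate 2 lay among the anti-TIE1 arrays (95% interval -0.39 to -0.01, adjusted p = 0.930). The medians of these lists were -0.04 for the ligands, -0.01 for the other components and 0.05 for the enzymes, beside -0.0038 for all named genes.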

How the data were processed

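RNA of sorted lung EC from 8 mice was hybridized to Clariom S arrays. The values the authors deposited are intensities on a linear scale that had been normalized across the arrays; how this was done is not given in the sources used for this work. Titles set the groups; the antibody label of 3 anti-TIE1 samples names other TIE numbers and was not used. There were 0 columns of other samples. Gene names came from the platform annotation.

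Log2 intensities were fitted with limma (3.58.1, R 4.3.3; lmFit and eBayes, anti-TIE1 minus IgG, no covariate), with Benjamini-Hochberg adjustment over 22204 probe sets that are no array controls and have values. Intervals are 95% intervals; the exact test used 70 arrangements. The number of arrays limits the precision. The fit was tested on simulated data. Members and lists were chosen with earlier results of these data known. Named in full were genes at an unadjusted p under 0.05 or without overlap and the main endothelial integrin and basement membrane chains, and of each further list at most 5 genes by p. The numbers in the titles did not pair the samples. Alternatives were other scalings, a brightness minimum, limma-trend, array weights, blocks, each array left out and the exact Mann-Whitney test.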

Additional observations from a re-analysis of the deposited data

Results flagged for a closer look

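In 5 of 124 groups of 4 values examined, 3 of them among the 82 groups of single integrin and basement membrane genes, 1 array stood apart from the other 3 by Dixon's ratio of gap to range (above its 95% critical value). Chance alone gives such a value in about 1 in 20 groups. Lamc3 was 7.36 in anti-TIE1 replicate 3, against 7.54 to 7.56 in the other anti-TIE1 arrays (ratio 0.925). Hspg2 was 7.23 in IgG replicate 4, against 7.75 to 7.82 in the other IgG arrays (0.886). Lamb2 was 8.81 in IgG replicate 2, against 9.16 to 9.23 (0.831). The mean of the integrin alpha chains was 8.83 in anti-TIE1 replicate 1, against 8.75 to 8.76 in the other anti-TIE1 arrays (0.867). The mean of the integrin ligands was 8.53 in IgG replicate 4, against 8.63 to 8.64 in the other IgG arrays (0.914).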

How the results depend on the processing

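The number of arrays limits what can be seen: no gene of the list passed an adjusted p in any setting, and the calls below rest on unadjusted p values. Leaving out 1 array gave between 0 and 18 probe sets at an adjusted p under 0.05 (18 without IgG replicate 4, 1 without anti-TIE1 replicate 4 and 1 without IgG replicate 1), between 0 and 1 genes of the list higher and between 1 and 4 lower at an unadjusted p under 0.05, and a median of the integrin chains between -0.0553 and -0.00351 (matrix chains -0.101 to -0.0192, and -0.00995 within the low-control arrays). With bright probe sets only, 300 probe sets were higher and 340 lower, and the integrin median was 0.0351. With the exact Mann-Whitney test, 307 probe sets were higher (1.38%) and 396 lower (1.78%), the same counts as those without overlap, and 0 of them were genes of the list. At an unadjusted p under 0.05, 3 genes of the list were higher within the low-control arrays (Itga8, Lama3 and Lamb3). In that set 4 were lower (Itga7, Itga9, Itgb3 and Itgb4), and over all probe sets 560 were higher and 853 lower. Within the high-control arrays 0 genes of the list were higher and 1 was lower (Nid1). Over all probe sets 506 were higher and 552 lower there. Each of these fits used only the arrays of its own set. Signs turned for several genes: within the low-control arrays Itga6 was -0.0266, Itgb5 0.180, Lamb1 0.0241, Hspg2 -0.0840 and Col18a1 0.0942; within the high-control arrays Itgb1 was 0.0190; with array weights Itgb5 was 0.00639 and Lamb1 0.0164. The cause was not tested. Leaving out 1 array gave ranges of -0.0615 to 0.0498 for Itgb5, -0.0731 to 0.0804 for Lama5, -0.0975 to 0.0714 for Lamb1, -0.187 to 0.00403 for Lamc1 and -0.128 to 0.0597 for Col4a1. The replicate block left 3 genes lower (Itgb3, Itgal and Nid1) and 0 higher; same-numbered arrays deviated with correlations between -0.05 and 0.01, so the numbers do not pair the samples. Averaging the probe sets of a gene was not run, since each gene had 1. Quantile or median scaling moved the median of all probe sets by under 0.01.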
